A study of Mus musculus with 6 samples.

Results

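Peaks of open chromatin that the authors' table placed in coding exons (CDS Exon), in 3' UTR exons or at transcript ends (TTS, transcription termination site) were examined, provided they lay more than 1000 bases from the annotated transcription start site (TSS) of their own transcript. Of 282898 listed peaks, 24579 (8.69%) met these conditions. They comprised 14654 CDS exon peaks, 4990 3' UTR exon peaks and 4935 TTS peaks, and they belonged to 10825 genes. The choice used only the annotation and no measured value. The distance limit removed 1909 CDS exon, 176 3' UTR exon and 402 TTS peaks. At that limit, the nearest CDS exon peak kept was in Rps6ka4 (1001 bases, 12 reads over the 6 libraries) and the nearest left out was in Tgoln2 (1000 bases, 13 reads). The corresponding 3' UTR exon peaks were in Gm15506 (1013 bases, 30 reads) and Gm21276 (1000 bases, 35 reads), and the TTS peaks were in Gm4763 (1001 bases, 11 reads) and Hmx3 (1000 bases, 33 reads).

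In ATAC-seq a transposase inserts sequencing adaptors where DNA is not wrapped in nucleosomes, so that reads pile up at promoters and enhancers. Coding exons and gene ends are mostly nucleosomal, and peaks there can mark enhancers that overlap exons, alternative start sites, insulator sites or low-level open DNA along transcribed genes. T follicular helper (Tfh) cells are CD4 T cells that help B cells in germinal centres. STAT6 is the transcription factor activated by the IL-4 receptor.

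The 6 libraries came from untreated C57BL/6 mice that were either Stat6 wild type (WT) or Stat6 knockout (KO). From each genotype 3 Tfh populations had been sorted by flow cytometry, called Tfh21, Tfh214 and Tfh4 in the labels, with 10 mice per genotype, 50000 cells per library and 1 library per genotype and population. The labels do not name the Stat6 allele, the tissue or the age of the mice. There were therefore no replicates of any group, and genotype was repeated only across populations, and population only across genotypes. Genotype and anything else that differed between the WT and KO mice or libraries cannot be told apart, and p-values measure only the spread across populations or genotypes.

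The libraries held 798555 (KO Tfh214) to 1373218 (WT Tfh4) reads in peaks. Levels are CPM (reads per 1000000 reads in the listed peaks), from which whole reads were recovered. Wherever 3 values of a genotype are listed, they follow the order Tfh21, Tfh214, Tfh4. Of the fixed cell markers, all 7 T helper and Tfh genes had reads, with a summed level of 292 to 313 CPM in WT and 259 to 348 CPM in KO. The 7 B cell markers summed to 113 to 153 CPM in WT and 100.8 to 122 CPM in KO, with no listed peak at Cd79a and Ms4a1. The 5 myeloid markers summed to 60.6 to 62.6 CPM in WT and 47.6 to 58.9 CPM in KO. Cd8a and Ncr1 were also at 0. Their part in the results below was not tested. Stat6 itself had 1 of the peaks studied, in its coding exon 18, with 10 reads in all, which checks no genotype label.

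The 3 class names did not describe equally pure sets. CDS exon peaks all lay on protein-coding transcripts. Where 2 or more of them shared a transcript and an exon number (392 cases), they spanned a median of 871 bases and at most 6256 bases, the scale of exons. The 3' UTR exon class was mixed. Of its 4990 peaks, 3483 (69.8%) belonged to non-coding transcripts, all of them on the minus strand, and only 1507 to protein-coding ones. In the whole table no peak of a non-coding transcript was labelled intron or CDS exon. Peaks inside such transcripts were labelled 5' UTR exon when the transcript was on the plus strand (3714 peaks) and 3' UTR exon when it was on the minus strand (3656 peaks).

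The position of these peaks differed accordingly. The 3' UTR exon peaks of protein-coding transcripts lay a median of 2248 bases before the transcript end, and 181 of them lay more than 10 kb before it. Those of non-coding transcripts lay a median of 23495 bases before the end, and 2514 lay more than 10 kb before it. Runx2, a transcription factor of bone formation, had 68 peaks in the set, the most of any gene. Of these, 66 were 3' UTR exon peaks on 2 non-coding minus-strand transcripts. Cdh8 (60 peaks), Cdkal1 (59), Cdh23 (56) and the long non-coding RNA Lncpint (53) followed. The class therefore holds mostly peaks from anywhere inside non-coding transcripts. Some of these belong to genes that also have a protein-coding transcript, such as Runx2. Peaks of protein-coding transcripts are given apart where they differ.

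**Figure D1:**
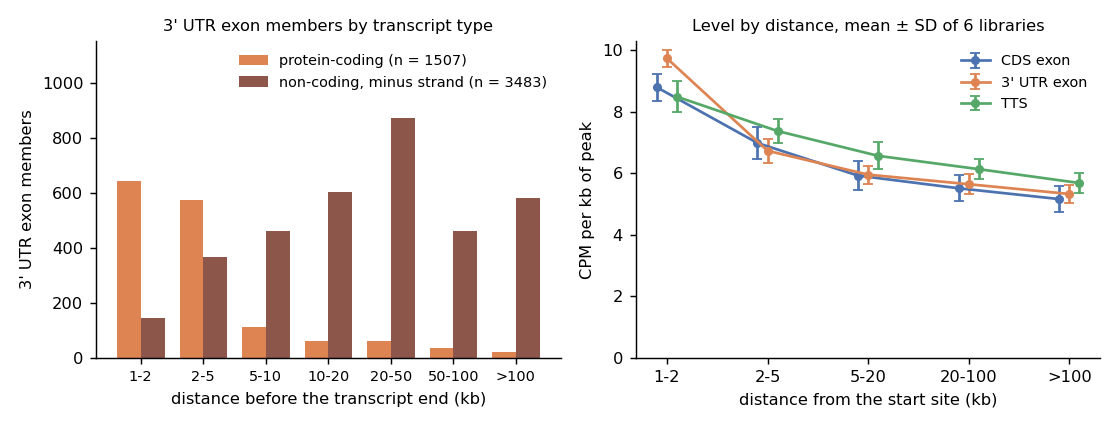
Left, number of 3' UTR exon peaks (vertical axis) by distance before the transcript end in kb, for protein-coding (n = 1507) and non-coding (n = 3483) transcripts; the protein-coding peaks crowd near the end and the non-coding ones do not. Right, summed level in CPM per kb of peak by distance from the start site in kb for the 3 classes, as mean and SD over the 6 libraries; the level is lower at each greater distance in all 3 classes, from between 8.49 and 9.74 at 1 to 2 kb to between 5.16 and 5.69 beyond 100 kb.

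The TTS class covered 999 bases before to 99 bases after the transcript end, so that all CDS exon and 3' UTR exon peaks lay at least 1000 bases before the end of their transcript. Of the 4935 TTS peaks, 1138 overlapped the end, 3476 lay before it and 321 after it. By transcript type, 4428 TTS peaks were on protein-coding and 507 on non-coding transcripts. Start sites listed for another gene were nearer to TTS peaks than to the others. Of TTS peaks 11.3% had one within 5 kb, against 3.75% of CDS exon and 4.53% of 3' UTR exon peaks. Within 1 kb the shares were 0.405%, 0.150% and 0.0802%.

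Nearly all of these peaks were weak. The median was 14 reads over the 6 libraries, 91.9% had fewer than 30, and 542 (2.21%) had 60 or more, against 43.0% of peaks in TSS sections (from 999 bases before to 99 bases after a start site). The share with 60 or more reads was 2.03% for CDS exon, 2.18% for 3' UTR exon and 2.76% for TTS peaks. Among 3' UTR exon peaks it was 1.46% on protein-coding and 2.498% on non-coding transcripts. A mean of 20 reads per library, the minimum for a test of single peaks, was reached by 216 peaks (124 CDS exon, 41 3' UTR exon and 51 TTS), which passed on their mean over all libraries. Of the 41 tested 3' UTR exon peaks, 6 were on protein-coding transcripts.

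Per kb of peak, with all distances from the start pooled, the TTS class was the most open of the 3. Summed over all its peaks, it held 6.63, 6.32 and 7.14 CPM per kb in WT and 6.19, 6.35 and 6.43 in KO. The 3' UTR exon class held 5.85, 6.02 and 6.23 CPM per kb in WT and 5.54, 5.51 and 6.00 in KO. The CDS exon class held 5.88, 5.68 and 6.56 in WT and 5.31, 5.62 and 5.90 in KO. TTS stood above both other classes in each of the 6 libraries, while the other 2 classes crossed.

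TTS exceeded CDS exon by a mean log2 ratio of 0.16 ± 0.04 (SD, n = 6 libraries), with an exact sign-flip p of 0.031 (two-sided, the smallest that 6 libraries allow) and 0.047 after Benjamini-Hochberg adjustment over the 3 pairs of classes. It exceeded the 3' UTR exon class by 0.15 ± 0.05, with the same exact p and adjusted p. CDS exon against 3' UTR exon differed by -0.01 ± 0.06, higher in 3 of 6 libraries, with an exact p of 0.719. The TTS difference did not appear among peaks of 60 or more reads, where it was -0.02 against CDS exon and -0.01 against 3' UTR exon. For scale, TSS sections held 26.2 to 34.5 CPM per kb, introns 5.49 to 6.22 and intergenic peaks 5.06 to 5.85.

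Within each class the summed level per kb was lower farther from the start site. CDS exon peaks 1 to 2 kb from the start held 8.80 ± 0.44 CPM per kb (SD over 6 libraries), those at 5 to 20 kb held 5.93 ± 0.47 and those beyond 100 kb held 5.16 ± 0.43. For 3' UTR exon peaks the values were 9.74 ± 0.28, 5.96 ± 0.29 and 5.33 ± 0.29, and for TTS peaks 8.49 ± 0.50, 6.57 ± 0.44 and 5.69 ± 0.32. TTS was thus the lowest class at 1 to 2 kb and the highest at each greater distance. TTS peaks also lay nearer their start, at a median of 16381 bases, against 23245.5 (CDS exon) and 31712.5 (3' UTR exon). The part of distance in the TTS difference was not tested. CDS exon peaks at 1 to 2 kb and beyond 100 kb had a median of 15 and 14 reads and a median length of 358 and 461 bases. The share with 60 or more reads was 4.53% and 1.17%. The part of peak length and of the stronger peaks in the lower level was not tested. The number of the coding exon gave the same order. Peaks in coding exon 2 held 7.23 ± 0.27 CPM per kb, in exon 5 5.81 ± 0.49 and in exon 21 or later 5.24 ± 0.46. TTS peaks that overlapped the end held 6.28 ± 0.27 and those before it 6.59 ± 0.37, a difference that was not tested. In the same libraries, 3' UTR exon peaks of protein-coding transcripts held 5.69 ± 0.32 and those of non-coding transcripts 5.93 ± 0.29.

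The question put to genotype was whether loss of Stat6 goes with more or fewer reads in coding exons and gene ends. As pooled reads, coding exons took a smaller share of the KO library in each population. CDS exon peaks held 3.99%, 3.86% and 4.45% of reads in WT and 3.61%, 3.81% and 4.01% in KO. The Wilson 95% intervals, which cover counting error only, were no wider than 3.77 to 3.86 (KO Tfh214) and overlapped between genotypes in Tfh214 alone. The mean log2 ratio of KO over WT was -0.11 ± 0.08 (SD, n = 3 populations), lower in 3 of 3, with an exact sign-flip p of 0.25, the smallest that 3 populations allow. Scaled by median-of-ratios size factors, computed from peaks averaging 20 reads or more, it was -0.29 ± 0.11.

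The 3' UTR exon class followed, at 1.28%, 1.32% and 1.36% in WT against 1.21%, 1.21% and 1.31% in KO. Its mean log2 ratio was -0.09 ± 0.04, lower in 3 of 3, with the same smallest exact p of 0.25. Restricted to protein-coding transcripts it was -0.07. TTS peaks held 1.43%, 1.37% and 1.54% in WT and 1.34%, 1.37% and 1.39% in KO. Their mean log2 ratio was -0.08 ± 0.08, lower in 2 of 3 populations, with an exact p of 0.50. Median-of-ratios scaling gave -0.28 ± 0.05 for 3' UTR exon and -0.27 ± 0.10 for TTS peaks, both lower in 3 of 3. With 3 populations no difference between the classes in this effect can pass a threshold of 0.05. CDS exon minus TTS was -0.02 ± 0.02 (exact p = 0.25), CDS exon minus 3' UTR exon was -0.02 ± 0.11 and 3' UTR exon minus TTS was -0.01 ± 0.12 (exact p = 1 for both).

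**Figure D2:**
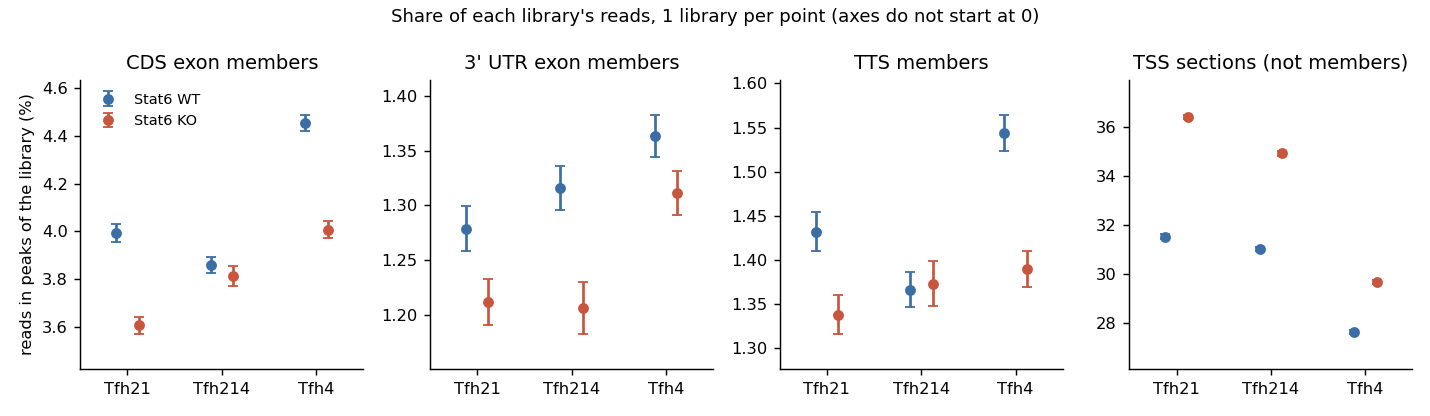
Percent of each library's reads in peaks (vertical axes, not starting at 0) that fell in CDS exon, 3' UTR exon and TTS peaks and, for comparison, in TSS sections, by population (horizontal axis) for WT and KO; each point is 1 library with its Wilson 95% interval. CDS exon shares run from 3.61% to 4.45% and are highest in Tfh4 of each genotype, where TSS sections are lowest (27.6% and 29.7%).

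Of all reads in peaks, Tfh4 gave these peaks their largest share in each genotype. All 3 classes together took 6.70%, 6.54% and 7.36% of reads in WT and 6.16%, 6.39% and 6.71% in KO. For CDS exon peaks, Tfh4 over Tfh21 was 0.16 (log2) in WT and 0.15 in KO. For 3' UTR exon peaks it was 0.09 and 0.11, and for TTS peaks 0.11 and 0.05. The size depended on the scale. The CDS exon mean of 0.15 became 0.44 with median-of-ratios scaling and 0.04 when counted against reads outside TSS sections. On the latter count all 3 classes together took 9.79%, 9.48% and 10.2% in WT and 9.68%, 9.83% and 9.54% in KO, so that Tfh4 was the highest population in WT and the lowest in KO. Permuting the populations within genotypes gave an exact p for any population effect of 0.333, 0.333 and 0.50 for CDS exon, 3' UTR exon and TTS, where 0.167 is the smallest possible. Tfh214 against Tfh21 went opposite ways in the genotypes, at -0.05 in WT and 0.08 in KO for CDS exon peaks.

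These shares moved together with the reads at start sites. TSS sections took 31.5%, 31.0% and 27.6% of WT reads and 36.4%, 34.9% and 29.7% of KO reads, so that the library with the most start-site reads (KO Tfh21) had the smallest share in coding exons, and the library with the fewest (WT Tfh4) the largest. Counted against reads outside TSS sections only, CDS exon peaks took 5.83%, 5.59% and 6.16% in WT and 5.67%, 5.86% and 5.70% in KO, and the mean log2 ratio of KO over WT was -0.03 ± 0.09, lower in 2 of 3 populations. On that count the ratio was -0.01 ± 0.04 for 3' UTR exon peaks and -0.003 ± 0.10 for TTS peaks, each within the spread of the populations. How far the start-site reads account for the class shares was not tested.

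Pooled reads and stronger single peaks went opposite ways. The 24037 peaks with fewer than 60 reads took 5.68%, 5.51% and 6.51% of WT reads and 4.93%, 5.28% and 5.73% of KO reads, lower in KO in every population and highest in Tfh4. The 542 peaks with 60 or more reads took 1.02%, 1.03% and 0.850% of WT reads and 1.23%, 1.12% and 0.983% of KO reads, higher in KO in every population and lowest in Tfh4. The mean log2 ratio of KO over WT was -0.15 ± 0.08 for the weaker and 0.20 ± 0.08 for the stronger peaks (n = 3 populations each). Since peaks of 60 or more reads hold 15.3% of the reads of the set, the weaker peaks set the pooled direction.

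Each class showed this split. Among peaks of 60 or more reads the mean log2 ratio of KO over WT was 0.20 ± 0.08 for CDS exon, 0.23 ± 0.16 for 3' UTR exon and 0.17 ± 0.04 for TTS, higher in 3 of 3 populations each (exact p = 0.25). Tfh4 over Tfh21 was -0.27, -0.32 and -0.32 for the same peaks, against 0.23, 0.18 and 0.17 for the weaker peaks of the classes. Over all peaks of the table, those with 60 or more reads took 38.4%, 38.5% and 32.5% of WT reads and 45.6%, 42.9% and 36.8% of KO reads. There the weaker and the stronger share make up the whole library, so that one must fall where the other rises. The libraries also differed in depth. Of the peaks studied, 3.64% had no read in WT Tfh4, the deepest library, and 22.2% had none in KO Tfh214, the shallowest. The share of reads in the weaker peaks was largest in WT Tfh4 (6.51%). It was smallest in KO Tfh21 (4.93%), the next shallowest library, followed by KO Tfh214 (5.28%). The part of depth in the split was not tested.

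**Figure D3:**
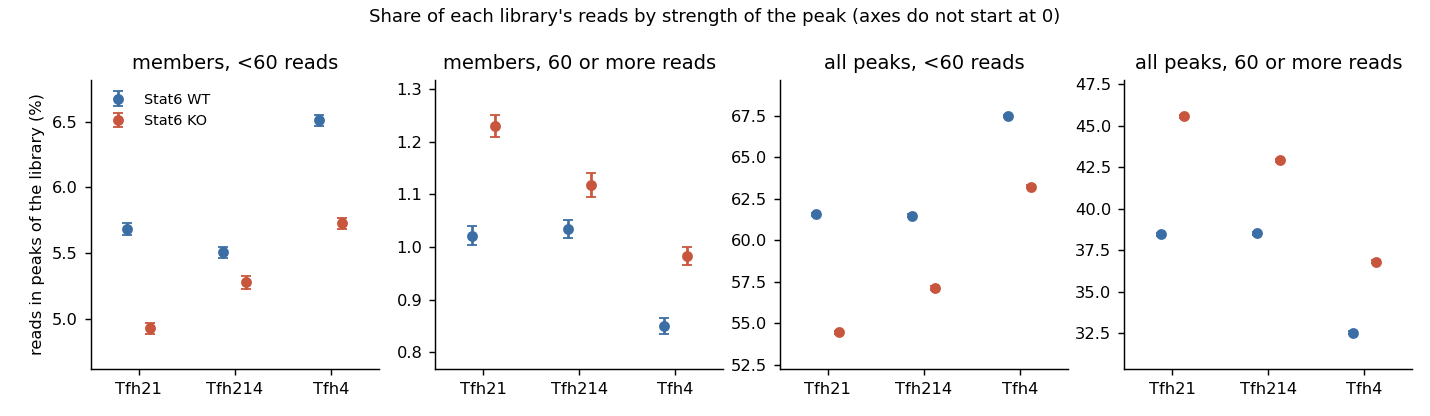
Percent of each library's reads in peaks (vertical axes, not starting at 0) by population, for coding exon and gene end peaks (members) and for all listed peaks, split at 60 reads over the 6 libraries; points are single libraries with Wilson 95% intervals. KO lies below WT for the weaker peaks in every population and above WT for the stronger ones, among the 24579 members as among all peaks. Over all peaks the weaker and the stronger share make up the whole library, so that each panel mirrors the other.

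Peak by peak, a model of genotype and population (limma, log2(CPM + 1), 8986 peaks averaging 20 reads or more, Benjamini-Hochberg adjustment, threshold 0.05) called 1 of the 216 tested peaks higher in KO and 0 lower. Over all tested peaks 0.857% were called higher and 0.0% lower. At an unadjusted p under 0.05, 48 of the 216 were higher and 1 lower, beside 20.9% and 0.1% of all. The median effect was 0.21 (log2), beside 0.19 for all tested peaks, and 184 of the 216 lay above 0, beside 85.9% of all. With median-of-ratios scaling the medians became 0.03 and 0.00, 125 of 216 lay above 0 and no peak of the set was called. By class the medians were 0.20 for CDS exon (104 of 124 above 0), 0.26 for 3' UTR exon (38 of 41) and 0.19 for TTS (42 of 51).

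The called peak lay in coding exon 2 of Edem1, which helps to clear misfolded glycoproteins from the endoplasmic reticulum (chromosome 6, 108785835 to 108786755, mm9, 7200 bases from the start). It stood at 40.1, 48.0 and 32.0 CPM in WT and at 59.9, 55.1 and 57.3 CPM in KO, so that the genotypes did not overlap. Its effect was 0.53 ± 0.14 (log2, SE; limma adjusted p = 0.046). With median-of-ratios scaling the effect was 0.34 and not called (limma adjusted p = 0.999), and edgeR and DESeq2 did not call it either. It was also lost without any of the Tfh21 or Tfh4 libraries. Without WT Tfh21 or KO Tfh21 no peak of the set was called, and without either Tfh214 library more were called. Shares over all tested peaks are not given for these fits, so the changes cannot be read as particular to the set.

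A larger effect fell short of the threshold at Lef1, a transcription factor of the Wnt pathway that acts early in Tfh differentiation. Its 3' UTR exon peak (chromosome 3, 130911053 to 130912010, protein-coding transcript, 15266 bases before the end) held 22.3, 25.9 and 28.4 CPM in WT and 47.6, 36.3 and 35.5 CPM in KO, again without overlap. The effect was 0.61 ± 0.17 (limma adjusted p = 0.058), which size factors from median ratios lowered to 0.43. The highest CDS exon effects were at Stap1 (0.68), a signalling adaptor, Metap2 (0.65), a methionine aminopeptidase, and Snx14 (0.64), a sorting nexin. Among non-coding 3' UTR exon peaks a second Lncpint peak (0.64) and 2610307P16Rik (0.63) were close to Lef1. The highest TTS effects were at Fabp4 (0.48), a fatty acid binding protein, 4921511C10Rik (0.47) and the metalloproteinase gene Mmp10 (0.43). None of these passed the test.

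At the low end, the non-coding F730043M19Rik peak held 36.5, 30.7 and 20.4 CPM in WT and 24.7, 15.0 and 20.99 CPM in KO, and its effect was -0.50 ± 0.20 (limma adjusted p = 0.162). The groups overlapped, with WT Tfh4 below 2 of the KO libraries. In coding exons the lowest were Synpo (-0.34), an actin-associated protein, the antiproliferative gene Btg2 (-0.26) and Myo1h (-0.25), and among TTS peaks Nos3 (-0.12), Notch4 (-0.11) and Dapk3 (-0.06). The Nos3 and Dapk3 effects turned positive (0.09 and 0.05) without a Tfh4 library. Of the 216 peaks, 32 stood higher in all 3 KO than in all 3 WT libraries (22 CDS exon, 7 3' UTR exon, 3 TTS), which is 14.8%, beside 13.4% of all tested peaks. None stood lower in all, beside 0.323%. Both shares are close to those of all tested peaks.

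**Figure D4:**
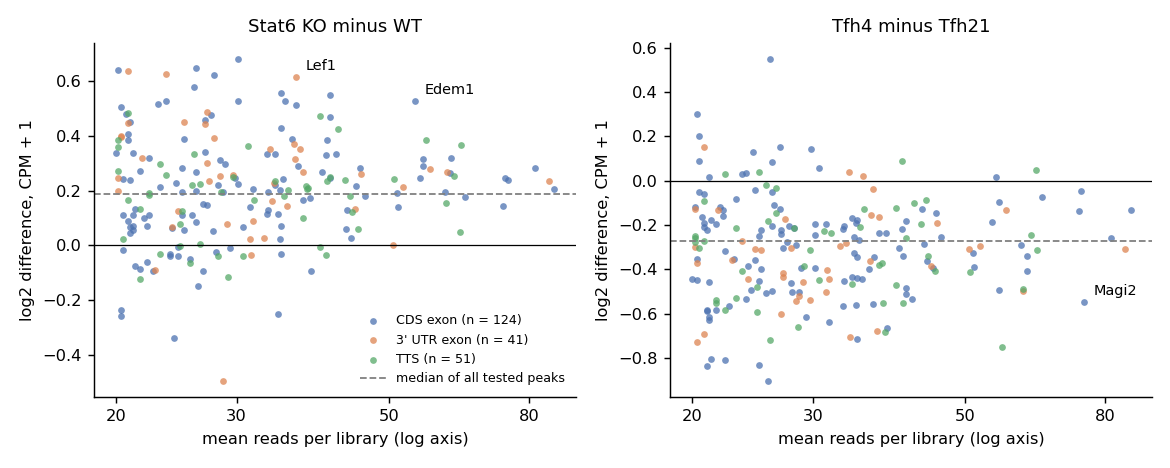
Log2 difference of CPM + 1 (vertical axes) against mean reads per library (log axis) for the 216 tested peaks, coloured by class, with the median of all 8986 tested peaks as a dashed line; left KO minus WT, right Tfh4 minus Tfh21. The peaks scatter around the medians of all tested peaks, 0.19 and -0.27, with Edem1 called on the left and Magi2 on the right among the peaks marked by name.

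Between populations the same model called 0 of the 216 peaks for Tfh214 against Tfh21, beside 0.0% of all tested peaks, with 3 higher and 7 lower at an unadjusted p under 0.05, beside 0.924% and 2.92% of all. edgeR (4 higher and 1 lower at an unadjusted p under 0.05) and DESeq2 (0 and 0) also called 0. Tfh4 against Tfh21 gave 2 calls, both lower in Tfh4, beside 1.31% of all tested peaks. Tfh4 against Tfh214 gave 7, all lower in Tfh4, beside 1.98% of all. The median effects were -0.30 and -0.26, against -0.27 and -0.23 for all tested peaks, and -0.03 and -0.02 with median-of-ratios scaling, under which no peak of the set was called. At an unadjusted p under 0.05 the counts were 1 higher and 60 lower (beside 0.0556% and 26.0%) and 0 higher and 55 lower (beside 0.122% and 22.1%).

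The peak in coding exon 23 of Magi2, a scaffold protein gene (chromosome 5, 20207419 to 20208611, 1474555 bases from the start), stood at 63.2, 78.6 and 42.2 CPM in WT and at 86.6, 67.6 and 59.7 CPM in KO. Tfh4 was the lowest population in each genotype. The effect of Tfh4 against Tfh21, 1 of the 2 calls, was -0.55 (limma adjusted p = 0.044).

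Against Tfh214, Magi2 (-0.53) was called again, and the calls included the TTS peak of Clec11a and 4 non-coding 3' UTR exon peaks. Clec11a, a secreted C-type lectin gene, stood at 56.1, 55.04 and 39.3 CPM in WT and at 58.0, 85.2 and 53.3 CPM in KO (-0.57, limma adjusted p = 0.036). The non-coding peaks were in LOC106557447 (-0.88), Gm15997 (-0.75), 2700097O09Rik (-1.02) and C230024C17Rik (-0.62). No peak of the set was called in these contrasts by edgeR, DESeq2 or limma without the trend, and none without WT Tfh21 or without KO Tfh21. The calls of Tfh4 against Tfh21 rose without WT Tfh214, KO Tfh214 or KO Tfh4. Those of Tfh4 against Tfh214 fell without WT Tfh214 or WT Tfh4 and rose without KO Tfh4. Shares over all tested peaks are not given for these fits, so the changes cannot be read as particular to the set. Tfh4 stood below Tfh21 in both genotypes, with no overlap, at 102 of the 216 peaks (47.2%), beside 49.7% of all tested peaks, and below Tfh214 at 92, beside 43.6%. It stood above Tfh21 at 0 peaks, beside 0.846%, and above Tfh214 at 6, beside 2.45%. Tfh214 stood above Tfh21 at 19 peaks, beside 8.18%, and below it at 37, beside 16.3%. Each of these counts is near its background.

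Effects of Tfh4 against Tfh21 above 0 were few, at 20 of 216 peaks, beside 7.87% of all. The highest was in coding exon 26 of Itga2, the collagen receptor integrin chain, at 12.5, 22.8 and 20.4 CPM in WT and 21.9, 31.3 and 29.9 CPM in KO (0.55, limma adjusted p = 0.161). Tfh21 was the lowest population there in each genotype. Nsmce1 (0.30), Map4k1 (0.20), a kinase that restrains T cell receptor signalling, a second Lncpint peak (0.15) and Sema4b (0.15) followed. Without WT Tfh21 the effects of Nsmce1, Map4k1 and Sema4b turned to -0.24, -0.16 and -0.18, and without WT Tfh4 that of Lncpint turned to -0.06. The lowest effects were at the coding exons of Def6 (-0.90), a guanine nucleotide exchange factor of T cells, Pbx3 (-0.84), Scp2 (-0.83), Tnni1 (-0.81) and Espn (-0.81), none past the threshold.

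The strongest CDS exon peak was in exon 4 of Mnt, a repressor that competes with Myc for Max (chromosome 11, 74651218 to 74652626). It held 74.8, 62.9 and 77.2 CPM in WT and 89.4, 87.7 and 71.9 CPM in KO, overlapping between genotypes, at a mean of 54.9 ± 7.1 CPM per kb. Vsig10l, Magi2, Sfi1 and Csf2ra, the GM-CSF receptor alpha chain, were next. Csf2ra stood at 70.4, 58.2 and 56.8 CPM in WT and 64.7, 73.9 and 66.2 CPM in KO, with an effect of 0.15 ± 0.12, which was -0.04 with median-of-ratios scaling. Its peak lay 1009 bases from the start, just past the limit.

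All 5 strongest 3' UTR exon peaks were on non-coding transcripts: Pisd-ps2, a Tasp1 transcript, Dleu2 (the host of the miR-15a and miR-16 genes), Lncpint and A430078I02Rik. Pisd-ps2 held 81.9, 70.8 and 58.99 CPM in WT and 79.9, 97.7 and 71.9 CPM in KO. Dleu2 stood at 45.4, 45.6 and 46.6 CPM in WT and 59.9, 60.1 and 48.4 CPM in KO, without overlap (0.28 ± 0.13, limma adjusted p = 0.210). The Lncpint peak, 1388 bases from its start, stood at 40.1, 50.3 and 38.6 CPM in WT and 58.98, 51.3 and 40.4 CPM in KO.

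Strong TTS peaks were at Clec11a, Gm10560, Rn45s and Spaca6. Rn45s is the ribosomal RNA precursor, which exists in many copies. Its peak held 64, 63 and 63 reads in WT and 60, 62 and 62 in KO, and 57.0, 49.5, 45.9, 57.1, 77.6 and 50.1 CPM in that order. Reads at Rn45s, at the pseudogene Pisd-ps2 and at Sfi1 can come from near-identical copies elsewhere, so these values are uncertain. Over the 216 tested peaks the CPM varied between libraries with a median coefficient of variation of 20.3%, beside 17.4% for all tested peaks.

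**Figure D5:**
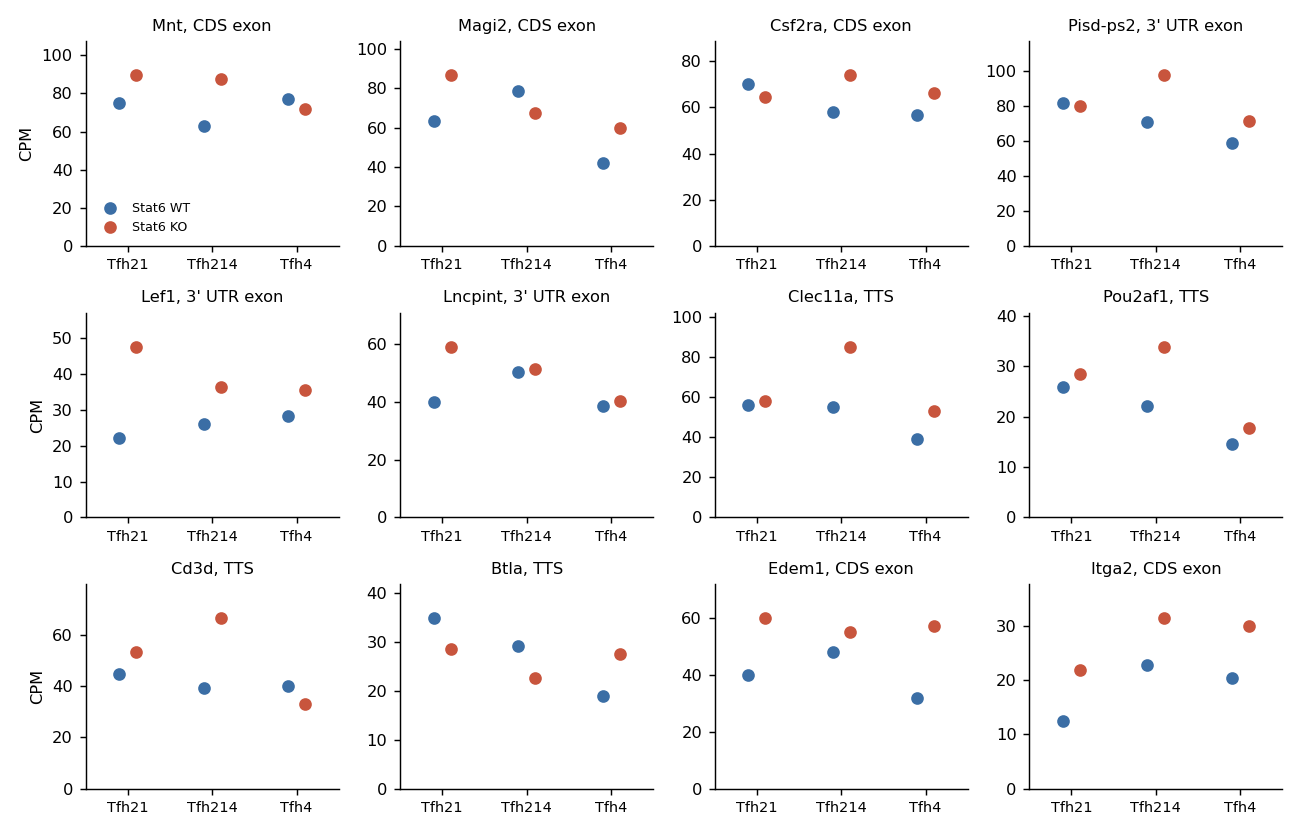
CPM (vertical axes, from 0) in each of the 6 libraries for 12 peaks of coding exons, 3' UTR exons and transcript ends, by population and genotype, 1 point per library. KO lies above WT in every population at Lef1 and Edem1, and Tfh4 is the lowest population in both genotypes at Magi2 and Pou2af1.

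Without replicates, pairs of libraries were also compared directly, counting peaks at or past 2-fold on the log2(CPM + 1) scale among those whose higher library had 20 reads or more. In Tfh21, 10 of 295 peaks were 2-fold higher in KO and 1 lower, beside 1.66% and 0.0781% of all peaks. In Tfh214 it was 5 and 5 of 277, beside 0.487% and 0.696%. In Tfh4 it was 13 and 12 of 298, beside 2.14% and 0.717%. With median-of-ratios scaling the counts were 4 and 1, 0 and 9, and 4 and 13, so that lower peaks outnumbered higher ones in Tfh214 and Tfh4. All peaks gave 0.430% and 0.205%, 0.0995% and 1.14%, and 0.978% and 1.09%. With a minimum of 10 reads the counts were 83 and 110 of 896, 41 and 175 of 925, and 192 and 385 of 1575. All peaks then gave 6.19% and 4.88%, 2.40% and 10.7%, and 8.94% and 12.8%. Lower peaks of the set thus led in each population, and over all peaks in Tfh214 and Tfh4 only. The direction of these counts therefore depends on the scaling and the minimum. Of the 10326 peaks behind the Tfh4 background at the minimum of 20 reads, 7378 were TSS sections. The median in the higher library was 37 reads over all of them and 28 over the set.

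Set against other peaks outside start sites, the KO-higher share in Tfh4 was 4.36%, against 4.98% for intergenic, 6.82% for intron and 5.92% for 5' UTR exon peaks and 0.827% for TSS sections. The KO-lower share was 4.03%, against 1.75%, 1.42%, 2.07% and 0.244%. In Tfh214 the KO-lower share was 1.81%, against 1.47% for intergenic and 1.97% for intron peaks, and in Tfh21 it was 0.339% (1 peak), against 0.206% and 0.128%. The difference between these shares was not tested. Of those 12 peaks, 9 were in coding exons. Several had more reads in WT Tfh4 than in any other library. The peak in coding exon 3 of Zfp180, a zinc finger gene, had 4, 2 and 26 reads in WT and 8, 8 and 7 in KO. In the order of the libraries, exon 8 of Cntn4 had 6, 2, 20, 2, 1 and 4 reads, and exon 5 of Tbc1d24 had 3, 8, 25, 4, 5 and 9. Serp2 had its reads in KO Tfh4 in the same way, at 7, 6, 7, 4, 1 and 20 reads. These peaks, and those in the next 2 paragraphs that are not in a fixed list, were singled out after their values were seen, and these 4 rest on 1 library each.

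Of 44 distinct peaks past 2-fold between genotypes, 2 were past it in the same direction in 2 populations and 0 in opposite directions. Hjurp, a chaperone of the centromeric histone, had a TTS peak with 23, 20 and 19 reads in WT and 10, 5 and 11 in KO. Rgs3, a regulator of G protein signalling, had an exon 7 peak with 10, 20 and 10 reads in WT and 20, 12 and 20 in KO, which is higher in KO in Tfh21 and Tfh4 and not in Tfh214. The exact binomial 95% intervals of these 4 ratios all included 1. In KO Tfh4, Gpr183, which guides Tfh and B cells in lymphoid tissue, had 32 reads in its coding exon 2 peak against 13 in WT (2.73-fold, exact binomial 95% interval 1.39 to 5.67). Jun, part of AP-1, had 24 against 9 in its coding exon (2.96-fold, 1.33 to 7.23). In Tfh21 and Tfh214, Gpr183 had 18 and 23 reads in WT and 20 and 12 in KO. Jun had 17 and 16 there in WT and 13 and 16 in KO. Both peaks are named for passing 2-fold in Tfh4, so their intervals are no test of a difference. In 12 of the 46 calls the interval included 1.

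Between populations, the direction of the peaks past 2-fold depended on the scaling and the minimum of reads. WT Tfh214 against WT Tfh21 gave 4 higher and 0 lower of 294 (beside 0.53% and 0.231% of all), and KO Tfh214 against KO Tfh21 gave 0 and 13 of 283 (0.111% and 1.47%). Tfh4 against Tfh21 gave 3 and 7 of 273 in WT (0.483% and 1.36%) and 1 and 18 of 308 in KO (0.124% and 1.99%). Tfh4 against Tfh214 gave 8 and 14 of 312 in WT (0.549% and 3.05%) and 4 and 8 of 255 in KO (0.937% and 0.999%). Lower peaks thus led in 5 of 6 pairs on this scale. With median-of-ratios scaling the counts, in the same order, were 4 and 0, 0 and 9, 5 and 3, 2 and 3, 12 and 4, and 6 and 1, and lower peaks led in 2 of 6. All peaks gave 0.539% and 0.231%, 0.141% and 0.985%, 0.917% and 0.433%, 0.400% and 0.409%, 1.06% and 1.12%, and 1.77% and 0.281%. With a minimum of 10 reads the counts were 132 and 118, 29 and 104, 328 and 116, 206 and 109, 409 and 175, and 218 and 50, and higher peaks led in 5 of 6. These were of 1084, 738, 1384, 1088, 1534 and 971 peaks. All peaks then gave 8.23% and 5.09%, 1.96% and 7.57%, 12.5% and 5.88%, 9.68% and 5.90%, 13.3% and 9.55%, and 12.2% and 3.02%. Higher peaks led there in the same 5 pairs. Slc7a1, a transporter of cationic amino acids, had 21, 49 and 17 reads in WT and 35, 24 and 35 in KO in its coding exon 6 peak. Tfh214 was the highest population there in WT. In KO it had the fewest reads, but KO Tfh214 is also the shallowest library, so reads alone do not rank the KO populations.

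Genes of T cell biology had 7 tested peaks in these positions, and 0 of them was called in any contrast. Over all tested peaks 0.857% were called higher in KO. For Tfh4, 1.31% were called lower than in Tfh21 and 1.98% lower than in Tfh214. With 7 peaks, 0 calls cannot be told apart from those shares. Of 25 Tfh identity genes 18 had a peak in the set (45 peaks). Their pooled KO over WT ratio was 1.14 (exact binomial 95% interval 1.03 to 1.27), beside 0.935 (0.929 to 0.940) for the whole set, but 1.003 with median-of-ratios scaling, where the whole set stood at 0.823. Of the 45 peaks 5 had 60 or more reads, beside 2.21% of the whole set, and peaks of that strength took a larger share in KO in every population. The part of peak strength in the ratios of the gene lists was not tested. Apart from Lef1, the tested peaks were at Btla and Pou2af1. Btla, an inhibitory receptor, held 34.7, 29.1 and 18.9 CPM at its end in WT and 28.5, 22.5 and 27.5 CPM in KO. Pou2af1, a coactivator, held 25.8, 22.0 and 14.6 CPM in WT and 28.5, 33.8 and 17.8 CPM in KO, lowest in Tfh4 of each genotype.

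T cell receptor signalling genes had 100 peaks in 24 of 25 genes, with a KO over WT ratio of 1.10 (1.02 to 1.19), and 0.968 with median-of-ratios scaling. The peak at the end of Cd3d, a chain of the receptor complex, held 44.5, 39.3 and 40.1 CPM in WT and 53.3, 66.4 and 33.1 CPM in KO, with KO Tfh4 the lowest of all 6. Plcg1, with 21.4, 15.7 and 19.7 CPM in WT and 24.7, 20.04 and 17.0 CPM in KO in coding exon 23, overlapped between genotypes.

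Of the 117 listed peaks of activation genes, which are mostly immediate early and AP-1 genes, 32 (27.4%) were in the set, and 18 of these were TTS peaks. Of all listed peaks that carry a gene the share was 16.6%, and in the other lists it ran from 7.38% (Tfh identity) to 21.1% (effector regulators). The difference was not tested. Their KO over WT ratio was 1.23 (1.09 to 1.38), and 1.08 with median-of-ratios scaling, and their Tfh4 over Tfh21 ratio was 0.802 (0.698 to 0.922), and 0.978 with that scaling. Of the 32 peaks 4 had 60 or more reads, beside 2.21% of the whole set. Junb held 39.2, 29.1 and 32.0 CPM at its end in WT and 40.9, 43.8 and 34.7 CPM in KO. KO was higher in every population, while the groups overlapped. The Junb peak lay 1873 bases from its start site.

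Regulatory T cell genes (20 peaks) had a Tfh4 over Tfh21 ratio of 0.707 (0.578 to 0.863), and 0.862 with median-of-ratios scaling, and a KO over WT ratio of 1.03 (0.874 to 1.21), and 0.907 with that scaling. The Tfh4 over Tfh21 ratio was below 1 in the Th1 (0.812), effector regulator (0.864) and Th2 (0.883) lists too. It was 0.921 for T cell receptor signalling and 0.930 for Tfh identity. The intervals of these other lists all included 1. With median-of-ratios scaling they ran from 0.990 (Th1) to 1.13 (Tfh identity), beside 1.34 for the whole set. The peaks of Ctla4, an inhibitory receptor (87 reads), and Ikzf2, which encodes Helios (80 reads in the strongest), were too weak for the test. Ikzf2 held 10.7, 15.7 and 6.55 CPM in WT and 19.0, 8.77 and 9.69 CPM in KO there. The Th1 (22 peaks), Th2 (10 peaks, 191 reads) and effector regulator genes (32 peaks) had KO over WT ratios of 0.937 (0.776 to 1.13), 0.938 (0.696 to 1.26) and 1.10 (0.938 to 1.29). Each interval included 1, and differences of those sizes were not detectable at this depth. Scaled by median-of-ratios factors they were 0.825, 0.825 and 0.967, beside 0.823 for the whole set.

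Zinc finger genes, many of which carry their finger array in a single long coding exon, had 331 peaks in the set in 200 of 423 genes. Their KO over WT ratio was 0.958 (0.910 to 1.01) and their Tfh4 over Tfh21 ratio 1.07 (1.005 to 1.14), beside 0.935 and 1.10 for the whole set. With median-of-ratios scaling they were 0.844 and 1.302, beside 0.823 and 1.34. Zfp771 (TTS), Zfp51 (coding exon 5) and Zfp329 (TTS) were tested, with KO effects of 0.17, 0.46 and 0.26 (-0.01, 0.28 and 0.08 with that scaling), and none was called. The share of a chromosome's peaks that lay in the set ran from 5.83% on X to 12.6% on chromosome 11 among the autosomes and X.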

How the data were processed

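ATAC-seq of 6 sorted Tfh libraries gave the data. The authors deposited 1 table of peaks with CPM per library, which sum to 1000000 in each. Per the submitters' processing notes, Bowtie 1.3.0, MACS2 2.0, HOMER and the build mm9 were used, with no roles stated; the treatment of duplicates and of transposase offsets is not given in the sources used here. Coordinates are as deposited. Whole reads were recovered from the value of 1 read in each library: at least 99.9989% of values lay within 0.02 reads of a whole number. PCR copies are not independent molecules, so the intervals describe counting error alone.

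Classes, distances, strands and transcripts were read from the deposited annotation, in which the field headed gene ID holds the symbol. Protein-coding and non-coding transcripts were told apart by accession prefix. For each class, shares of reads and CPM per kb were compared by exact sign-flip and permutation tests. Single peaks were fitted on the whole table with limma 3.58.1 (trend, log2(CPM + 1), genotype and population, 2 residual degrees of freedom), where a mean of at least 20 reads was required. With so few degrees of freedom the SE is drawn mostly from peaks of like level, and p-values measure spread over populations or genotypes, not animals. edgeR 4.0.16 and DESeq2 1.42.0 on recovered reads were alternatives, with other pseudocounts, minima, scalings and left-out libraries. On recovered reads edgeR called 1 of 8986 peaks for KO against WT and 0 in the population contrasts. The fit was also run on simulated Poisson counts without population effects or extra spread. That run checks the code and cannot bear on the calls made here. R 4.3.3, Python 3.11.15, numpy 2.4.6, scipy 1.17.1, pandas 2.3.3 and matplotlib 3.10.9 were used.

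Members, gene lists and the test were chosen with earlier results of these data known. Named genes are, per class, the 5 peaks with most reads and the 3 highest and 3 lowest genotype effects; the 5 highest and 5 lowest Tfh4 against Tfh21 effects; called peaks; listed genes' peaks with at least 60 reads; the 3 zinc finger peaks with most reads; and the peaks nearest the distance limit. No genome of the build mm9 was used here, so no peak sequence is printed. A few peaks that the rule names are not reported here.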

Additional observations from a re-analysis of the deposited data

Results flagged for a closer look

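Within the classes, 4 effects had opposite signs in the groups where they were repeated. None of these differences was tested, since each group has 1 library. For TTS peaks, KO over WT was 0.0069 in Tfh214 and as low as -0.1517 in Tfh4. Tfh214 over Tfh21 had opposite signs in WT and KO in all 3 classes. For CDS exon peaks it was -0.05 in WT and 0.0812 in KO, and for TTS peaks -0.0674 in WT and 0.0373 in KO. For 3' UTR exon peaks the order was the other way, with 0.0412 in WT and -0.0066 in KO. KO Tfh214, which enters all of them, is the shallowest library, with 798555 reads; its part in them was not tested.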

How the results depend on the processing

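Shares of reads, levels per kb and call counts were recomputed under the alternatives listed here and under a pseudocount of 0.5 and a distance beyond 5000 bases; the peaks split at 60 reads, protein-coding transcripts alone and no distance limit are among them. Protein-coding transcripts alone, and the levels per kb of peaks under 60 reads, were added after seeing the data. Of 173 recomputed values, 112 kept their direction and their side of the threshold (counts, within 1.5 times), though some of these changed in size, 36 counts moved further and 25 values reversed. Of 498 recomputed effects of named peaks, 369 were unchanged in direction and call, 95 lost and 20 gained the call, and 14 reversed. The causes were not tested.

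Among peaks of 60 or more reads, KO over WT turned to 0.1966 for CDS exon, 0.2315 for 3' UTR exon and 0.1673 for TTS. Tfh4 over Tfh21 turned to -0.2738, -0.3155 and -0.322, and Tfh4 over Tfh214 to -0.2197, -0.2793 and -0.2295. Tfh214 over Tfh21 turned to -0.0541 (CDS exon) and -0.0362 (3' UTR exon). Per kb, CDS exon over 3' UTR exon became 0.0063, TTS over 3' UTR exon -0.0131 and TTS over CDS exon -0.0194. Among weaker peaks, Tfh214 over Tfh21 became 0.0062 (TTS) and CDS exon over 3' UTR exon per kb 0.0068. Counted outside TSS sections, Tfh214 over Tfh21 became -0.0065 (CDS exon) and -0.0048 (3' UTR exon), Tfh4 over Tfh21 -0.0093 (3' UTR exon) and -0.0313 (TTS), and Tfh4 over Tfh214 -0.0045 (3' UTR exon). With no distance limit, Tfh214 over Tfh21 became -0.0022 (CDS exon) and CDS exon over 3' UTR exon per kb 0.0586; with protein-coding transcripts alone the latter was 0.0325.

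Median-of-ratios scaling moved the median effect over all tested peaks from 0.19 to 0.00 for KO against WT and from -0.27 to 0.00 for Tfh4 against Tfh21. With it, Tfh214 over Tfh21 for TTS became 0.0277. The class shares moved away from 0: for CDS exon, 3' UTR exon and TTS, KO over WT went from -0.11, -0.09 and -0.08 to -0.29, -0.28 and -0.27, and Tfh4 over Tfh21 from 0.15, 0.10 and 0.08 to 0.44, 0.39 and 0.36. Peaks past 2-fold between populations fell from 80 to 49, and higher peaks then outnumbered lower ones in 4 of 6 pairs, against 1 of 6. A minimum of 10 reads in the higher library gave 986 peaks past 2-fold between genotypes and 1994 between populations, against 46 and 80. The shares over all peaks at these settings are given above, pair by pair. The calls for KO against WT, Tfh4 against Tfh21 and Tfh4 against Tfh214 (1, 2 and 7) became 0, 1 and 3 with a mean of at least 10 reads. They became 0, 0 and 0 with no minimum, with median-of-ratios scaling, without trend, with edgeR and with DESeq2. Without 1 library at a time they ran from 0 to 14, 0 to 19 and 0 to 13. Named effects that changed sign ran, over the left-out libraries, from -0.2861 to 0.0427 (Btbd19), -0.1785 to 0.0874 (Limk1), -0.2892 to 0.0891 (Nos3) and -0.2763 to 0.0526 (Dapk3, also 0.0321) for KO against WT. For Tfh4 against Tfh21 they ran from -0.2363 to 0.8377 (Nsmce1), -0.1645 to 0.2024 (Map4k1), -0.1822 to 0.483 (Sema4b) and -0.0625 to 0.2972 (Lncpint).

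No paired analysis by replicate number was possible because each group holds 1 library. The sign-flip tests and the fit paired KO with WT by population instead, and with genotype alone and no population term, 0 peaks were called for KO against WT. Most peaks studied had under 30 reads, which limits single peaks to large differences.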
